A study of Drosophila melanogaster with 382 samples.

Results

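The genes described here are those whose RNA lay in the middle of the wild-type Drosophila melanogaster embryo throughout the second part of cycle 14. A gene was ranked if it reached 15 FPKM (fragments per kilobase of transcript, scaled to the sequenced depth of the slice) in at least 1 slice of each of the wild-type embryos at cycles 14C, 14D and 14E. For each of these 3 embryos, the share of the summed FPKM that fell in the middle of 3 equal parts of the length was taken, called the middle share below, and genes were ordered by the smallest of the 3 shares. The first 40 of 3355 ranked genes, among 13587 named genes in all, are the members. The members were thus chosen by the middle shares and levels of these 3 wild-type embryos, which are given only as a description. All 40 were at 15 FPKM or more in those 3 embryos by the rule.

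Single embryos were cut crosswise from the anterior to the posterior end, and RNA from each slice was sequenced on its own. The 25 embryos gave 338 slices with FPKM values out of 382 labelled slices. The main comparison used 10 embryos: 2 bcd RNAi, 2 2.4x bcd, 2 hb RNAi and 1 zld embryo, all labelled cycle 14D, and the 3 wild-type embryos. The embryo, not the slice, was the replicate.

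The bcd RNAi and hb RNAi embryos came from mothers with the maternal tubulin Gal4 driver and a UAS short hairpin against bcd or hb, so the knockdown acts on the maternal product, and the embryo's own hb gene was still present. The 2.4x bcd embryos came from the line 20 stock, in which an eGFP-Bcd fusion is at 2.4x the wild-type level per the study's methods. The zld embryos came from germline clones of a zld mutant chromosome in a stock that also carries a Histone-RFP reporter. The wild type was Canton-S. No driver-only, non-targeting hairpin or reporter-only embryos were used here. Per the study's methods, mothers of the RNAi lines were aged to strengthen the knockdown, whereas those of 2.4x bcd and zld were younger. Maternal age therefore cannot be told apart from the line where the RNAi lines are compared with these.

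The kit differed between lines. The bcd RNAi, 2.4x bcd and hb RNAi libraries were SMARTseq2 without carrier RNA, whereas zld and wild type were TruSeq with yeast carrier RNA. A difference of the first 3 lines from wild type therefore cannot be told apart from a difference between kits. Per the study's methods, the wild-type reads came from the authors' earlier dataset and were mapped again, whereas the mutant libraries were new. A difference of any line, zld included, from wild type therefore cannot be told apart from one between datasets. The stage may also have differed within the label, but the values of the 1 gene given here cannot separate stage from line or kit. The mean FPKM over the slices of byn, a hindgut gene that comes on late in cycle 14, was 14.8 to 40.2 in the 6 SMARTseq2 embryos and 1.23 in the zld embryo, against 1.72, 1.79 and 19.2 in wild type at 14C, 14D and 14E.

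Before cellularization the fly embryo is a shared cytoplasm in which maternal gradients set position. Bicoid protein forms a gradient from the anterior pole and activates head and thorax genes, Hunchback activates or represses the gap genes by dose, and Zelda is a ubiquitous activator that opens the earliest zygotic enhancers. Gap genes such as Kr are expressed in broad blocks, and pair-rule genes such as eve, ftz, odd and prd read these blocks as stripes. A gene can have a high middle share because it has a central block, because its stripes start behind the head, or because only the poles are low.

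The members ranged from genes with most of their RNA in the middle part to genes only a little above an even share. The smallest wild-type middle share ran from 68.4% for Kr to 36.2% for Atg14. It was 60% or more for 1 member, 50% or more for 3, 45% or more for 9 and 40% or more for 18. An even distribution gives one part in 3 parts, and the median over all genes at 15 FPKM or more was 35.3%, 33.9% and 30.5% at 14C, 14D and 14E, and the share of each member lay above these. At the edge of the rule, Obp99a (36.3%) and Atg14 were the last inside, and Ppa and CG6885 (36.1% each) the first outside. Traf4, with a smallest share of 44.9%, missed the FPKM threshold at 13 FPKM.

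The members were poor in maternal RNA, a property that the rule did not use. In the wild-type embryo at cycle 11, 20 of the 40 (50%) had a mean below 1 FPKM, against 3.72% of the ranked genes. At the same cycle 13 members (32.5%) had a mean of 15 FPKM or more, against 89.5% of the ranked genes. The median mean level was 0.926 FPKM for the members and 64.7 FPKM for the ranked genes. The number of members reaching 15 FPKM in a slice was 14 at cycle 11, 23 at cycle 13, 28 at 14A and 39 at 14B. In the annotation used (BDGP6.54), 9 members (22.5%) had no intron in any transcript, namely CG15479, sisA, rpr, CG43659, CG18269, tsg, Brd, E(spl)m4-BFM and CG15084, against 9.92% of the 3336 ranked genes with an annotation. Members lay on 2L (10), 2R (8), 3L (9), 3R (9) and X (4). Exons of 12 members overlap those of another gene, on the same strand for Notum and CG44001, and reads of such pairs may not be told apart.

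**Figure D1:**
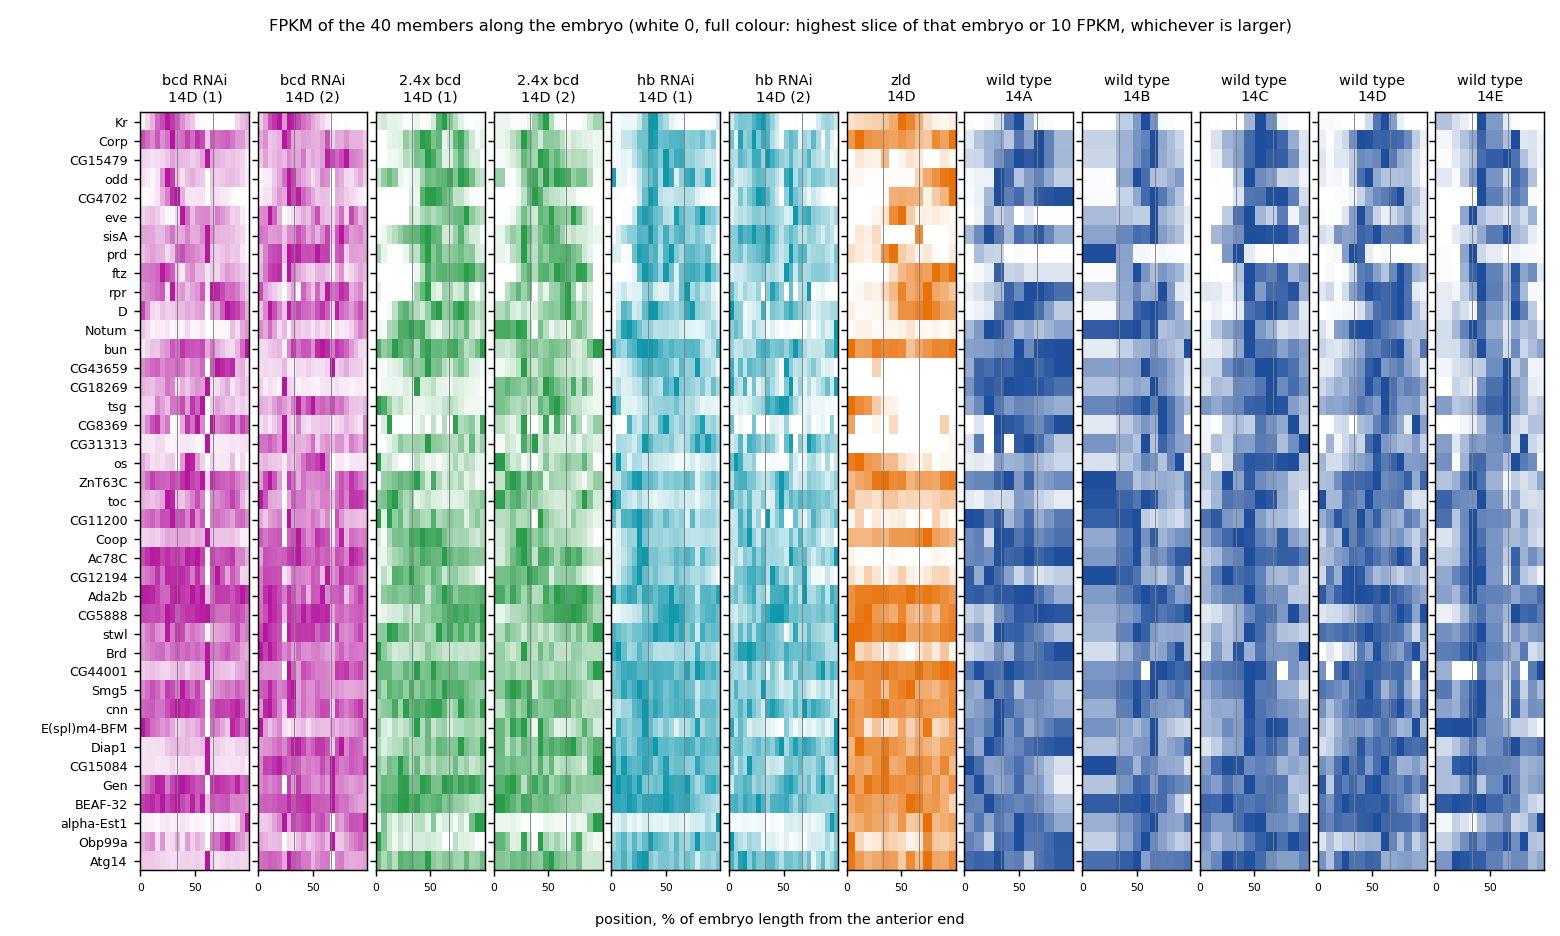
Expression of the 40 members (rows, in order of the smallest wild-type middle share) along each embryo (columns), from the anterior (left) to the posterior end. Colour runs from white at 0 to full colour at the highest slice of that embryo or 10 FPKM, whichever is larger, and grey lines mark the 3 equal parts. The band of Kr lies further to the anterior in bcd RNAi than in wild type at 14C and 14D, and CG43659, CG18269, CG31313 and Ac78C are nearly white in zld.

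A few slices stood apart from the rest of their embryo. In bcd RNAi embryo 1, slice 14 had 4019 genes at 1 FPKM or more, 59.8% of that embryo's median over slices. In bcd RNAi embryo 2, slices 6 and 16 had 63.6% and 63.1% of the median. The other slices of the 12 embryos shown had 82.2% or more. These 3 of 181 slices carry single-slice peaks of CG31313, Diap1, CG15084 and Atg14 in the heatmap of the members, so results for bcd RNAi are also given with these slices set as missing, an alternative chosen after the data were seen. Slices with no values, and these in that alternative, were filled with the mean of their nearest neighbours. In wild type at 14B, 6 of the 13 slices were filled in this way, and at 14E 4 of 13. With missing slices left out, the members' median middle share was 46.2% at 14B, against 39.8% with them filled.

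The labels were checked by the targeted genes. The mean FPKM of bcd, which encodes the anterior gradient protein, was 0.936 and 1.82 in bcd RNAi, 11.3 and 4.39 in 2.4x bcd, 0.723 and 0.574 in hb RNAi and 390 in zld, against 24.7, 67.1 and 2.1 in wild type at 14C, 14D and 14E. The bcd RNAi level was thus below 2.4x bcd but not below hb RNAi. The mean FPKM of hb was 29.9 and 20.3 in hb RNAi, 22.2 and 27 in bcd RNAi, 42.5 and 44.2 in 2.4x bcd and 125 in zld, against 85.6, 140 and 61.7 in wild type. These values include zygotic hb. The germ plasm RNAs pgc and nos, which mark the pole cells at the posterior end, had a summed mean of 13.8 FPKM in bcd RNAi embryo 2, 11.9 in zld and 9.1 in wild type at 14D, against 43.2 to 365 in the other 7 embryos. Their mean position was 51.9% of the length in bcd RNAi embryo 2 and 42.5% in zld, against 63.6% to 95.7% in the other 8, so the direction of the slices in those 2 embryos rests on the labels. Their part in the results was not tested, and in bulk slices fewer cells of a type and less RNA per cell cannot be told apart.

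Across the members, the median middle share lay within 2 points of that of all genes in bcd RNAi and further above it in 2.4x bcd, but this order depended on how slices were treated. The members' median was 33.7% and 33.8% in the 2 bcd RNAi embryos, against medians of 32% and 33.3% over all genes. It was 37.1% and 38.4% in 2.4x bcd (all genes 33.2% and 32.3%). With missing slices left out the members' medians were 37.3% and 36.9% in bcd RNAi and 37.1% and 39% in 2.4x bcd, and with each slice counted at its midpoint 37.2% and 31.3% in bcd RNAi and 33.9% in each 2.4x bcd embryo, so the lines then overlapped. The median was 37.5% and 34.6% in hb RNAi (32.9% and 33.4%) and 34% in zld (33.6%). In the 2 wild-type embryos at cycle 14 that the rule did not use, the members' median was 36.8% at 14A and 39.8% at 14B (all genes 34.2% and 33.6%). A share chosen as high in 3 embryos tends to be lower in any other, so the difference of the mutants from 14C, 14D and 14E was not tested.

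The count of members with a middle share of 40% or more was, as a share, above that of all genes in each embryo given here, by the least in hb RNAi embryo 2. It was 12 of the 37 members at 15 FPKM or more in bcd RNAi embryo 1, where 11.2% of all genes passed, and 5 of 39 in embryo 2 (2.61% of all genes). With the 3 slices set as missing it was 9 of 37 (3.16%) and 6 of 38 (1.9%), and the members' median was 35.5% and 34.1%. In 2.4x bcd it was 16 of 39 in each embryo (7.7% and 5.08% of all genes). In hb RNAi it was 15 of 40 (2.5%) and 6 of 39 (13.1%), so the replicates differed. It was 5 of 25 in zld (1.58%), against 7 of 28 (4.37%) and 19 of 39 (7.53%) in wild type at 14A and 14B.

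The 18 members with a smallest wild-type share of 40% or more varied more between lines. Their median middle share was 36.2% and 34.6% in bcd RNAi, 50.5% and 48.8% in 2.4x bcd, 42.7% and 37.7% in hb RNAi and 41% over the 9 expressed in zld, against 37.4% and 40.6% in wild type at 14A and 14B. The other 22 members had medians of 33.3% to 35% in the 6 SMARTseq2 embryos and 33.8% in zld, against 36.5% and 37.8% in wild type at 14A and 14B.

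**Figure D2:**
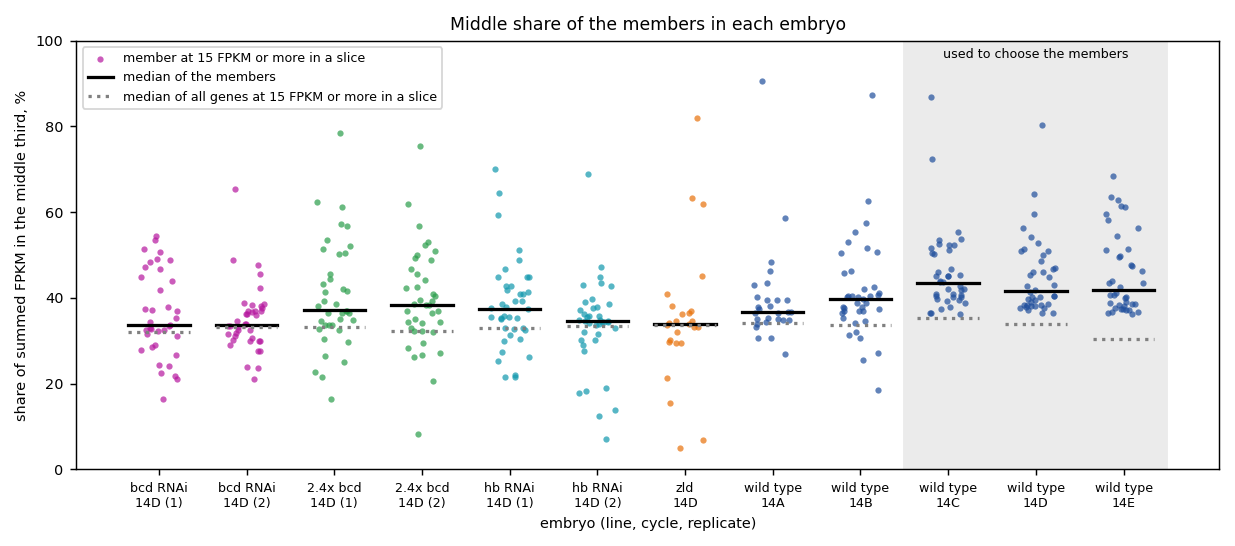
Middle share of each member in each embryo, in percent of summed FPKM, for members at 15 FPKM or more in a slice. Black bars are medians of the members and dotted bars medians of all genes at 15 FPKM or more, and the grey area marks the wild-type embryos that chose the members. The bcd RNAi medians (33.7% and 33.8%) lie near the medians of all genes, and the 2.4x bcd medians (37.1% and 38.4%) above theirs; with missing slices left out the bcd RNAi medians are 37.3% and 36.9% and overlap those of 2.4x bcd.

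Tests of where a gene was expressed were limited to the 6 SMARTseq2 embryos, which share a kit and took no part in the rule. Among them, maternal age differs between 2.4x bcd and the RNAi lines. The mean position of a profile, counted in percent from the anterior tip (0) to the posterior tip, was compared with limma and Benjamini-Hochberg adjustment over 4162 genes at 15 FPKM or more in each of these embryos, and 36 members were among them. Notum, CG18269, CG8369 and os were not. Between bcd RNAi and 2.4x bcd, 3 of 36 members differed in mean position, against 0.697% of all genes: Kr and ftz lay further to the anterior in bcd RNAi, and Obp99a further to the posterior.

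Kr (FBgn0001325, 2R:25226611-25231394, + strand) encodes the zinc finger repressor of the central gap domain. Its middle share was 24.5% and 37% in bcd RNAi, 57.4% and 62% in 2.4x bcd, 70.2% and 17.8% in hb RNAi and 62% in zld, against 90.5%, 87.4%, 87%, 80.3% and 68.4% in wild type at 14A to 14E. All mutant embryos at 14D except hb RNAi embryo 1 lay below all of wild type. In zld at 14A and 14B the share was 75.8% and 75.3%, within the range of wild type. The anterior share was 62.3% and 61.9% in bcd RNAi, 18.5% and 10.1% in 2.4x bcd, 24.8% and 62.2% in hb RNAi and 25.1% in zld, against 0.811% to 29.6% in wild type. Both bcd RNAi embryos and hb RNAi embryo 2 thus had most Kr RNA in the anterior part.

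The mean position of Kr was 36% and 29.2% in bcd RNAi, 53.7% and 55.4% in 2.4x bcd and 40.4% and 37.3% in hb RNAi. These 3 lines did not overlap. Wild type at 14A to 14E had 46.8%, 54.3%, 56%, 57.8% and 38.4%. The wild-type embryo at 14B thus lay within 2.4x bcd, and that at 14E within hb RNAi. Kr lay 21.93 points closer to the anterior in bcd RNAi than in 2.4x bcd (difference -21.93, SE 2.31, limma adjusted p = 0.00582), and this call held under all 13 alternatives tried. It lay 15.70 points closer to the posterior in 2.4x bcd than in hb RNAi (SE 2.31, adjusted p = 0.0463). That was 1 of 36 members, against 0.144% of all genes, and the call was lost under 6 of 13 alternatives, with adjusted p = 0.286 without hb RNAi embryo 1, 0.559 without hb RNAi embryo 2 and 0.0561 with the 3 slices set as missing.

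Kr RNA also lay further to the anterior in bcd RNAi than in 2.4x bcd at cycle 13, at low levels. Its anterior share was 34% and 58.5% in the bcd RNAi embryos at cycle 13 and 2.98% and 5.89% in 2.4x bcd. It was 55.1% in the hb RNAi embryo, and 59.9% and 72.7% in zld embryos 2 and 3, which had values for 4 of 6 and 5 of 7 slices, against 5.39% in wild type. The mean level of Kr at that stage was 2.46 to 27.7 FPKM, and no test was run on these embryos.

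ftz (FBgn0001077, 3R:6864324-6866244, + strand), a homeodomain pair-rule gene, is expressed in stripes behind the head. Its mean position was 39.9% in each bcd RNAi embryo, 70.6% and 58% in 2.4x bcd, 60.3% and 54.4% in hb RNAi and 74.5% in zld, against 64%, 64.4% and 57.3% in wild type at 14C, 14D and 14E. Both bcd RNAi embryos lay below all others. The difference of bcd RNAi from 2.4x bcd was -24.43 points (SE 3.44, limma adjusted p = 0.0134). It was not called without bcd RNAi embryo 1 (0.0708) or embryo 2 (0.118). The difference from hb RNAi was -17.46 points (adjusted p = 0.186, not called).

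The anterior share of ftz was 54.2% and 53.7% in bcd RNAi, against 0.403% and 13.7% in 2.4x bcd. In bcd RNAi the anterior part, which held 32.6% of ftz RNA in wild type at 14A, at a mean of 2.08 FPKM, and 2.87% to 11.9% from 14B to 14E, thus held the larger share. The middle share of ftz was 22.5% and 23.8% in bcd RNAi and 41.5% and 49.9% in 2.4x bcd (difference -22.54 points, SE 2.72, adjusted p = 0.0457). It was the only 1 of 36 members called in middle share in this comparison, against 0.0481% of all genes. With the 3 slices set as missing the difference was -22.69 points (adjusted p = 0.0125). It was not called without bcd RNAi embryo 1 (adjusted p = 0.0816), without 2.4x bcd embryo 2 (0.0604), without either hb RNAi embryo (0.111 each), with kallisto values (0.171), with slices at their midpoints (0.188), at 5 FPKM (0.0858) or with the replicate block (0.0709).

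Obp99a (FBgn0039678, 3R:29671657-29672334, + strand) belongs to the odorant-binding protein family. Its mean position was 57.2% and 58.4% in bcd RNAi, 31.9% and 41.8% in 2.4x bcd, 49.9% and 40.4% in hb RNAi and 49% in zld, against 56.6%, 56.9% and 53.4% in wild type. The 2.4x bcd embryos lay below wild type, and bcd RNAi lay less than 2 points above its highest embryo. The difference of bcd RNAi from 2.4x bcd was 20.99 points (SE 3.78, limma adjusted p = 0.0446), and adjusted p = 0.0583 with the 3 slices set as missing. It was also lost without bcd RNAi embryo 1 (0.194), bcd RNAi embryo 2 (0.357) or either hb RNAi embryo (0.056).

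**Figure D3:**
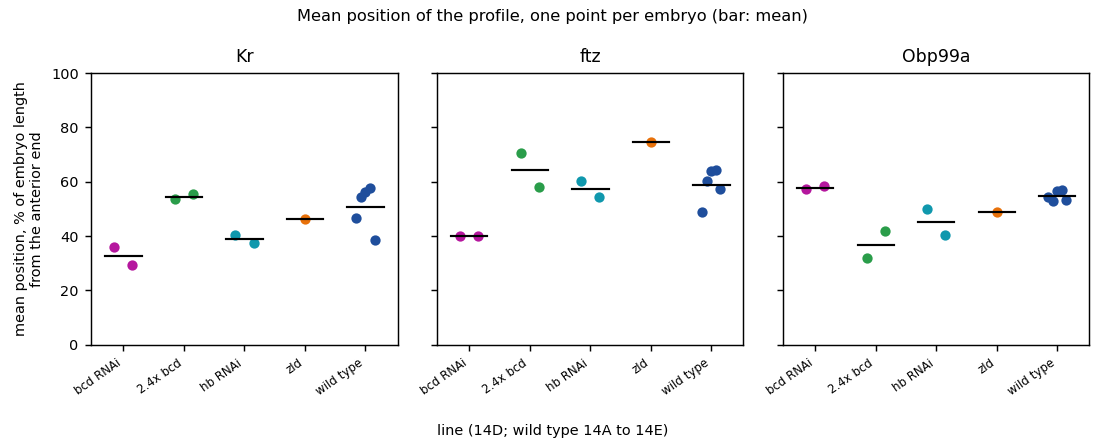
Mean position of Kr, ftz and Obp99a along the embryo, in percent of length from the anterior end, with 1 point per embryo and a bar at the mean of each line (cycle 14D, and 14A to 14E for wild type). Kr and ftz are furthest to the anterior in bcd RNAi (29.2% to 39.9%), and the mean of the 2 embryos of Obp99a is furthest to the anterior in 2.4x bcd (31.9% and 41.8%), with hb RNAi embryo 2 at 40.4%.

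No member was called in mean position between bcd RNAi and hb RNAi with limma, where 0.0481% of all genes were. There 7 of 36 members and 165 of 4162 genes had an unadjusted p under 0.05. In middle share no member was called between bcd RNAi and hb RNAi, or between 2.4x bcd and hb RNAi, by the same test. These contrasts called 0% of all genes. An unadjusted p under 0.05 was found for 7 and 10 of 36 members, and for 189 and 163 of 4162 genes.

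CG4702 (FBgn0037992, 3R:12121583-12128201, - strand) had the largest difference in middle share between bcd RNAi and 2.4x bcd among the 36 members tested. The share was 37.1% and 45.6% in bcd RNAi, 78.6% and 75.5% in 2.4x bcd, 64.4% and 43% in hb RNAi and 49.2% in zld, against 50.4%, 48.5% and 62.9% in wild type at 14C, 14D and 14E. CG4702 was below 15 FPKM in every slice of the zld embryo (at most 11.81 FPKM). The 2.4x bcd embryos were the highest of all, and did not overlap bcd RNAi. The difference of bcd RNAi from 2.4x bcd was -35.69 points (SE 6.11), which did not pass the adjustment over all genes (limma adjusted p = 0.162). CG43659 differed by -20.93 points (SE 3.63, adjusted p = 0.162), again with no overlap.

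Corp (FBgn0030028, X:8269898-8271409, - strand), a regulator of p53 named companion of reaper, also had lower shares in both bcd RNAi embryos than in 2.4x bcd. Its middle share was 35.3% and 33.8% in bcd RNAi, 52.2% and 45.5% in 2.4x bcd, 51.2% and 30.1% in hb RNAi and 30.5% in zld, against 52.4%, 56.3% and 54.5% in wild type. Both bcd RNAi embryos and hb RNAi embryo 2 were near the level of an even profile. Corp was below 15 FPKM in every slice of zld (at most 13.05 FPKM). Its wild-type share at 14A and 14B, which the rule did not use, was 38.1% and 50.7%. The intronless gene CG15479 (FBgn0032493, 2L:13233798-13234660, - strand) had 47.3% and 33.4% in bcd RNAi, 56.8% and 56.7% in 2.4x bcd and 59.4% and 39.8% in hb RNAi, against 51.6%, 59.5% and 61.3% in wild type. Neither passed the test between bcd RNAi and 2.4x bcd (limma adjusted p = 0.679 and 0.637).

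sisA (FBgn0003411, X:11321579-11322357, - strand), an X-linked signal for sex determination, had middle shares of 44% and 34.6% in bcd RNAi, 50.5% and 51% in 2.4x bcd and 46.8% and 35% in hb RNAi, against 46.7%, 46% and 63.5% in wild type. The bcd RNAi shares lay below those of 2.4x bcd, and overlapped those of hb RNAi (limma adjusted p = 0.628 against 2.4x bcd). At 14A and 14B, which the rule did not use, the wild-type share was 34.3% and 45.7%.

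The other pair-rule members varied more between replicates. odd (FBgn0002985, 2L:3604224-3606756, - strand), a zinc finger repressor, had middle shares of 26.7% and 36.7% in bcd RNAi, 36.5% and 53% in 2.4x bcd, 42.8% and 37.9% in hb RNAi and 6.95% in zld, against 72.4%, 64.2% and 49.8% in wild type. Every mutant embryo except 1 of 2.4x bcd lay below those 3 wild-type embryos, whose shares chose the members. At 14A and 14B, which the rule did not use, the wild-type share of odd was 49.1% and 62.7%. In the 14A embryo odd was below 15 FPKM in every slice. In the zld embryo at 14D odd RNA lay at the posterior end (mean position 81.4%), by a slice direction that rests on the labels. Its mean position in zld was 68% at 14A and 60% at 14B. eve (FBgn0000606, 2R:9979319-9980795, + strand), a homeodomain gene, had 54.5% and 29.9% in bcd RNAi, 39.3% and 52.3% in 2.4x bcd, 40.9% and 35.6% in hb RNAi and 82% in zld, against 53.5%, 54.1% and 46.3% in wild type. The zld share of eve was the highest of all embryos.

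prd (FBgn0003145, 2L:12082995-12085827, - strand), a paired-domain gene, had middle shares of 53.6% and 42.3% in bcd RNAi, 51.4% and 48.8% in 2.4x bcd, 41.4% and 37.7% in hb RNAi and 63.4% in zld, against 45.4%, 51.5% and 51.5% in wild type. At 14A and 14B, which the rule did not use, its wild-type share was 11.5% and 18.5%, with 88.5% and 79.5% in the anterior part. The 14A level was low, with a mean of 0.81 FPKM and at most 3.69 FPKM in a slice. The first slice with values at 14B was slice 4, the peak of prd (66.26 FPKM). Slices before it were filled from it, so the anterior share at 14B rests largely on that slice. The anterior part still held the larger share at 14C, with 52.6%.

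**Figure D4:**
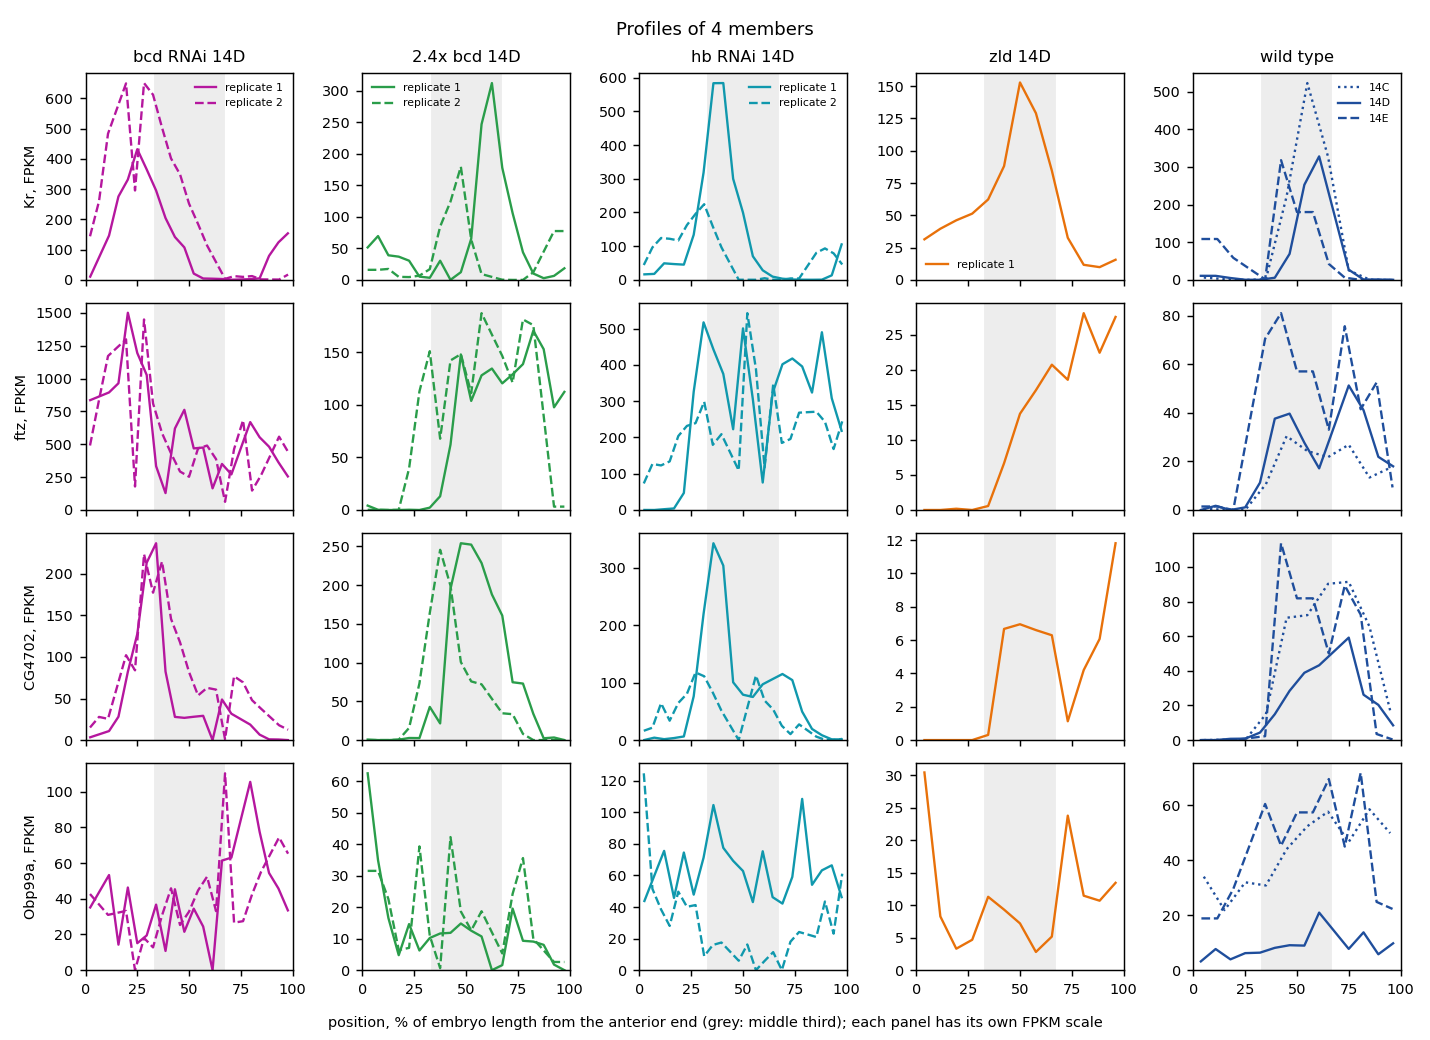
FPKM of Kr, ftz, CG4702 and Obp99a by position along the embryo, in percent of length from the anterior end, for each line; solid and dashed lines are the replicates 1 and 2, and dotted, solid and dashed lines in wild type are 14C, 14D and 14E. The grey band is the middle of the 3 equal parts and each panel has its own scale. The Kr domain lies in the anterior part in bcd RNAi (62.3% and 61.9% of the RNA) and in the middle part in 2.4x bcd (57.4% and 62%).

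Counted without a test, the middle share of 14 of the 36 members was lower in both bcd RNAi embryos than in both 2.4x bcd embryos, against 18.9% of all genes. They were Kr, Corp, CG15479, CG4702, sisA, ftz, rpr, D, CG43659, Ac78C, CG12194, Smg5, cnn and E(spl)m4-BFM. It was higher in both for 4 (16.5% of all genes): bun, toc, stwl and Diap1. With the 3 slices set as missing the counts were 16 (16.4%) and 4 (22.7%). Against hb RNAi, bcd RNAi was lower for 9 members (19.3%) and higher for 5 (15.1%), which is near the background. 2.4x bcd was lower than hb RNAi for 5 (18%) and higher for 10 (15.3%).

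Among these, D (Dichaete), a SoxB factor that acts on pair-rule genes, had middle shares of 24.1% and 36% in bcd RNAi, 36.9% and 42.7% in 2.4x bcd and 42.7% and 42.8% in hb RNAi, against 53.6%, 46.2% and 44% in wild type. rpr, an activator of apoptosis, had 27.9% and 36.3% in bcd RNAi, 62.5% and 39.5% in 2.4x bcd and 35.3% and 47.3% in hb RNAi, against 44%, 52.9% and 58.3% in wild type. bun, a TSC22-family gene, went the other way, with 46.7% and 48.8% in bcd RNAi and 33.8% and 36.9% in 2.4x bcd, against 50.2%, 43.1% and 47.4% in wild type. At 14A and 14B, which the rule did not use, bun had 33.2% and 37.6% in wild type, near its shares in 2.4x bcd. D had 58.7% and 55.3% in those embryos, and rpr 42.9% and 40.65%. None of these 3 differences between bcd RNAi and 2.4x bcd passed the adjustment (limma adjusted p = 0.637 for D, 0.699 for rpr and 0.328 for bun).

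The secreted signals among the members were scattered. tsg, a BMP-binding protein that acts with Sog, had a middle share of 48.7% and 47.6% in bcd RNAi, 21.6% and 49.3% in 2.4x bcd, 44.9% and 69% in hb RNAi and 5.02% in zld, against 41%, 41.5% and 47.8% in wild type. os (upd1), a ligand of the JAK/STAT pathway, had 56.9% and 65.4% in bcd RNAi, 22.8% and 27.1% in 2.4x bcd, 21.7% and 13.8% in hb RNAi and 24.1% in zld, against 46%, 40.6% and 38.7% in wild type. Only the 2 bcd RNAi embryos were above wild type for os, which was below 15 FPKM in every slice of bcd RNAi embryo 1 and of zld. Notum, a secreted inhibitor of Wnt signalling, had 18.2% and 24.2% in bcd RNAi at mean levels of 1.21 and 2.57 FPKM.

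In zld the mean levels of many members were lower. Since the levels at 14C, 14D and 14E entered the rule, the test used the zld and wild-type embryos at 14A and 14B, which did not. These embryos share the TruSeq kit but not the dataset, so line and dataset cannot be told apart. The test was run on log2(mean FPKM over the slices + 1) with limma and Benjamini-Hochberg adjustment over 4742 genes, a comparison chosen after the data were seen, and differences are on that scale. Of the 40 members, 16 were lower in zld, where 6.5% of all genes were, and 2 higher, where 30.1% of all genes were. The members had to reach 15 FPKM in later wild-type embryos and the other genes did not, so these shares are not on equal terms. The share of the ranked genes is not given for this test. The median difference was -1.07 over the members and 0.48 over all genes. With scaling to the median ratio 22 members were lower and 0 higher, while the split over all genes turned to 446 higher and 1026 lower, against 1428 and 308 without it.

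These counts depend on few embryos. Calls over all genes also fell without either zld embryo and rose without either wild-type embryo. The median difference over the members was -1.04 and -1.01 without the zld embryo at 14A and 14B (all genes 0.45 and 0.50). Without the wild-type embryo at 14A and 14B it was -1.48 and -0.49 (0.56 and 0.38). Without the zld embryo at 14A, or without that at 14B, 4 members were called, and these were CG43659, E(spl)m4-BFM, sisA and tsg both times. Without the wild-type embryo at 14A 26 were lower and 4 higher, and without that at 14B 18 and 7. The wild-type embryo at 14B had values for 7 of its 13 slices.

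CG43659 had a mean of 0 and 0.654 FPKM in zld at 14A and 14B, against 741 and 603 FPKM in wild type (log2 difference -9.03, SE 0.32, limma adjusted p = 1.59e-06). sisA had 1.47 and 1.46 FPKM, against 222 and 222 FPKM (-6.50, SE 0.28, adjusted p = 3.79e-06). tsg had 2.78 and 2.06 FPKM, against 215 and 160.5 FPKM (-5.78, SE 0.30, adjusted p = 1.40e-05). In all 3 the zld values lay far below both wild-type embryos.

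E(spl)m4-BFM, a Bearded-family gene of the Enhancer of split complex that is tied to Notch signalling, had 5.07 and 7.87 FPKM in zld, against 113 and 114 FPKM in wild type (log2 difference -3.96, SE 0.29, limma adjusted p = 0.00013). CG15479 had 2.57 and 2.56 FPKM, against 78.9 and 155 FPKM (-4.97, SE 0.38, adjusted p = 0.000155). The groups did not overlap. CG18269, Ac78C, an adenylate cyclase, Obp99a, CG31313, Corp, Notum, CG8369, CG5888, CG11200, CG4702 and Atg14, an autophagy gene, were also lower, with adjusted p of 0.000226 to 0.0303. Higher in zld were cnn, which encodes a centrosome component (52.5 and 56.6 FPKM, against 24.1 and 27.7 FPKM), and Gen, a Holliday junction resolvase (20.5 and 20.9 FPKM, against 6.69 and 5.92 FPKM), with adjusted p of 0.014 and 0.012.

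The zld embryo at 14D and the wild-type embryos at 14C, 14D and 14E are given as a description. Fitted with the SMARTseq2 embryos over 6600 genes, 14 members were past the limma threshold as lower in zld and 0 as higher, where 2.23% of all genes were lower and 3.94% higher, and 3.76% of the ranked genes lower. The levels of these wild-type embryos entered the rule, and zld had 1 embryo, so nothing is read from these counts. The mean FPKM in the zld embryos at 14A, 14B and 14D was below that of all 5 wild-type embryos from 14A to 14E for 16 members, where 5.65% of all genes and 6.86% of the ranked genes were. CG43659 had 0.235 FPKM in zld at 14D, against 649, 209 and 450 FPKM in wild type, and sisA 1.06 FPKM, against 246, 44.9 and 85.4 FPKM. The mean was above that of all 5 for 3 members, where 32.6% of all genes and 26.6% of the ranked genes were: ZnT63C, a zinc transporter, Ada2b, a subunit of histone acetyltransferase complexes, and Gen.

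Kr was not called, with 73.8 and 48.1 FPKM in zld at 14A and 14B, against 29.2 and 118 FPKM in wild type (log2 difference 0.01, SE 0.56, limma adjusted p = 0.988). The wild-type values lay on both sides of those in zld. The lists of the patterning network are given as a description, since the fit at 14D has 1 zld embryo. The median log2 difference of zld from wild type was -1.36 over 14 dorsal ectoderm genes and 1.31 over 5 segment polarity genes. The medians of the other lists lay from -0.90 to 0.10, and that of all genes was 0.37.

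**Figure D5:**
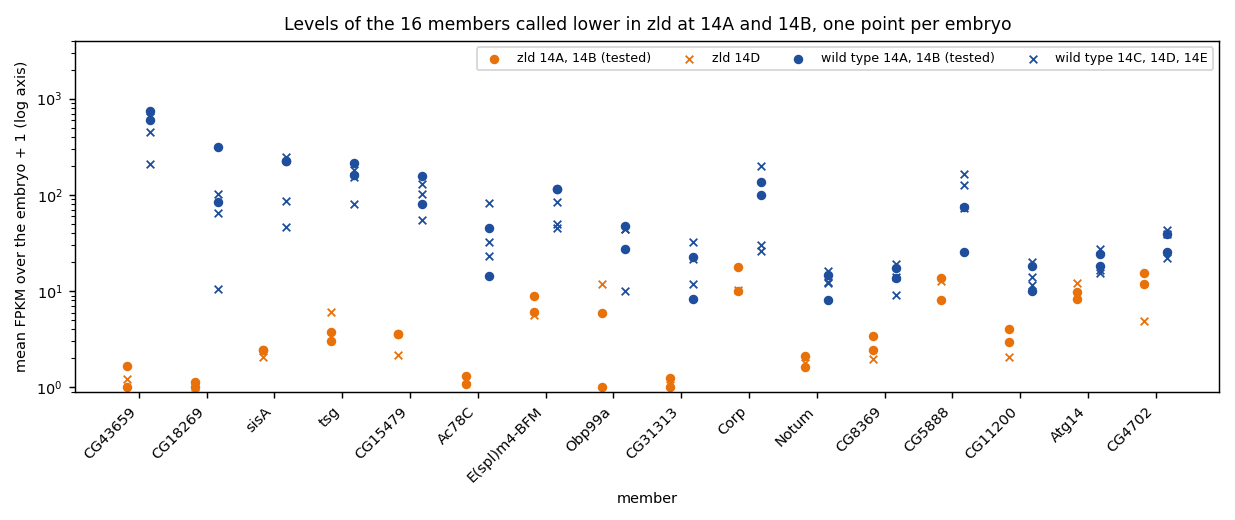
Mean FPKM over the embryo plus 1 (log axis) of the 16 members called lower in zld at 14A and 14B, with 1 point per embryo; filled points are the embryos tested and crosses the zld embryo at 14D and the wild-type embryos at 14C, 14D and 14E. Both filled zld points lie below both filled wild-type points for each member, as for CG43659 (0 and 0.654 FPKM against 741 and 603 FPKM).

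Levels were compared between bcd RNAi and 2.4x bcd by the limma fit over 6600 genes. These lines share a kit and took no part in the rule, but differ in maternal age. In this fit 5 members were higher in bcd RNAi and 1 lower, whereas 2.83% of all genes were higher and 3.35% lower. The 5 were ftz, prd, D, eve and Kr. The median difference over all genes was -0.11, and with median-ratio scaling the same 5 were higher and none lower. The mean level of ftz was 620 and 583 FPKM in bcd RNAi, against 75.9 and 92.4 FPKM in 2.4x bcd (log2 difference 2.83, SE 0.39, limma adjusted p = 0.00165). prd had 251 and 175 FPKM, against 36.7 and 63.6 FPKM (2.09, SE 0.42, adjusted p = 0.013). eve had 194 and 199 FPKM, against 51.5 and 51.6 FPKM (1.91, SE 0.41, adjusted p = 0.0192). None of these groups overlapped.

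D had 156 and 209 FPKM in bcd RNAi, against 47 and 38.1 FPKM in 2.4x bcd (2.07, SE 0.46, limma adjusted p = 0.0209), and Kr 127 and 243 FPKM, against 63.4 and 38.1 FPKM (1.82, SE 0.41, adjusted p = 0.0227). tsg was lower, with 32 and 61.3 FPKM, against 244 and 128 FPKM (-1.97, SE 0.51, adjusted p = 0.0391), and this call was lost with median-ratio scaling (adjusted p = 0.0875) and in the fit with the replicate number as a block (0.0511). The number of members called was 1 without bcd RNAi embryo 1, 1 without bcd RNAi embryo 2, 0 without 2.4x bcd embryo 1, 2 without 2.4x bcd embryo 2 and 10 without the wild-type embryo at 14E. The call of ftz was lost only without 2.4x bcd embryo 1 (adjusted p = 0.0512), whereas those of Kr, eve and D were lost without any one of the 4 embryos compared (0.0615 to 0.225). That of prd was lost without bcd RNAi embryo 1 (0.198), bcd RNAi embryo 2 (0.0639) or 2.4x bcd embryo 1 (0.197), with kallisto values (0.0827) or with no filter on low values (0.0603).

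hb RNAi had 271 and 222 FPKM of ftz, between bcd RNAi and 2.4x bcd, and 284 and 120 FPKM of eve and 170 and 53.4 FPKM of D, with a wider spread between its embryos. No member differed in level from hb RNAi by limma, neither in bcd RNAi (0.318% of all genes called) nor in 2.4x bcd (0.773%). An unadjusted p under 0.05 was found for 6 of 40 members and 799 of 6600 genes in bcd RNAi. In 2.4x bcd it was found for 5 members and 576 genes. On the lists of the patterning network, 3 of 5 primary pair-rule genes (eve, ftz and run) were higher in bcd RNAi than in 2.4x bcd. All 3 head gap genes (btd, ems and oc) were lower. Over all genes, 187 of 6600 were higher and 221 lower in that comparison. The calls of eve, ftz and Kr on these lists are the same as those given above for the members. Of the 7 gap genes Kr was higher, and hkb and tll were lower. Of 8 Hox genes and cofactors tested, Antp, Ubx and tsh were higher and Dfd lower.

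Against wild type, the levels in the 3 SMARTseq2 lines are given as a description, since those of the 3 wild-type embryos entered the rule, and since the kit and the stage cannot be told apart from the line. Past the limma threshold were 14 members as higher and 6 as lower in bcd RNAi (37.3% and 10.5% of all genes, and 17% of the ranked genes lower). In 2.4x bcd 11 were higher and 4 lower (41.6%, 8.91% and 15.6%), and in hb RNAi 10 higher and 4 lower (39.3%, 9.61% and 16.6%). The median over all genes was 0.60, 0.74 and 0.64 in the 3 lines. With median-ratio scaling the members split 6 higher and 9 lower, 4 and 10, and 5 and 8, and the higher share of all calls was 52.2%, 48.3% and 49.5%, against 78%, 82.4% and 80.4% without it. The number of members past the threshold was 9 and 10 without bcd RNAi embryo 1 and 2 and 12 without wild type at 14D (20 with all) in bcd RNAi, and 8 and 9 without 2.4x bcd embryo 1 and 2 (15) in 2.4x bcd. In hb RNAi it was 5 without hb RNAi embryo 2 and 9 without wild type at 14C (14). Nothing is read from these counts.

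Brd, a Bearded-family inhibitor of Neuralized in Notch signalling, had 1647 and 1162 FPKM in bcd RNAi, 1222 and 1613 FPKM in 2.4x bcd and 797 and 2089 FPKM in hb RNAi, against 27.4, 31.1 and 169 FPKM in wild type at 14C, 14D and 14E. No value of these lines overlapped wild type. At cycle 13 the Brd level was 222 to 779 FPKM in the SMARTseq2 lines, against 110 FPKM in wild type.

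Gen had 27.1 and 29.9 FPKM in bcd RNAi, 62.2 and 70 FPKM in 2.4x bcd and 28.5 and 80.4 FPKM in hb RNAi, against 10.5, 14.6 and 11.6 FPKM in wild type. Coop, a corepressor of the Wnt effector Pangolin, had 87.3 and 60.2 FPKM in bcd RNAi, 67.9 and 69.5 FPKM in 2.4x bcd and 45.6 and 63.6 FPKM in hb RNAi, against 21.4, 15.6 and 27.7 FPKM. Diap1, an inhibitor of apoptosis that rpr antagonises, had 80.2 and 76.5 FPKM, 53.5 and 64.2 FPKM, and 60 and 69.7 FPKM in the same lines, against 27.6, 13.3 and 27.3 FPKM. For these 3 genes all SMARTseq2 embryos lay above wild type.

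rpr had 15.3 and 13 FPKM in bcd RNAi, 4.3 and 6.34 FPKM in 2.4x bcd and 5.72 and 8.25 FPKM in hb RNAi, against 25.8, 21.1 and 28.3 FPKM in wild type, with no overlap. stwl, a gene of the female germline, had 13.3 and 15.3 FPKM in bcd RNAi, against 19.9, 55.2 and 30.7 FPKM, and CG44001 15.2 and 20.9 FPKM, against 56.9, 69 and 20.7 FPKM. Only CG44001 overlapped wild type. BEAF-32, an insulator protein gene, had 153 and 207 FPKM in bcd RNAi, 138 and 120 FPKM in 2.4x bcd and 158 and 132 FPKM in hb RNAi, against 330, 226 and 176 FPKM in wild type. Its difference in 2.4x bcd was -0.87 on the log2 scale and turned to 0.09 with kallisto values.

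Of the members with a smallest wild-type share of 36.4% to 38.2%, toc, a microtubule-associated protein gene, had middle shares of 29% and 30% in bcd RNAi, 16.4% and 20.7% in 2.4x bcd and 21.5% and 34.3% in hb RNAi, against 51.1%, 41.8% and 38.2% in wild type at 14C, 14D and 14E. All of these mutant embryos lay below those 3 wild-type embryos, whose shares chose the members. At 14B, which the rule did not use, the wild-type share of toc was 37.4%. At 14A it was 55.8%, at a mean of 2.35 FPKM. alpha-Est1, a carboxylesterase gene, had mean positions of 72.4% and 54.5% in bcd RNAi, 59.9% and 77.5% in 2.4x bcd and 63.8% and 76% in hb RNAi, against 49.8%, 50.4% and 66% in wild type, so the lines overlapped. CG5888 lay at 48.2% in each bcd RNAi embryo, against 65.3% and 58.1% in 2.4x bcd (difference -13.52 points, SE 2.57, limma adjusted p = 0.0582, not called). Smg5, a factor of nonsense-mediated decay, cnn, CG11200, CG12194 and CG15084 are the others in this range named here, and none was called in position or middle share.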

How the data were processed

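Per the labels and the study's methods, the authors aligned reads with STAR 2.3.0.1, after CASAVA 1.8.0, and computed FPKM per gene with Cufflinks 2.2.1 on FlyBase r6.03; slices with few fly reads or, without carrier, poor mapping were removed. TPM values deposited from kallisto 0.42 served as an alternative. Both are normalized within a slice, so amounts of RNA are not kept. Estimated depth was 540000 to 13000000 fragments per slice (median 3700000) in the SMARTseq2 embryos and 240000 to 3900000 (median 1200000) in the TruSeq embryos, so that 15 FPKM over 1 kb is at least 8.1 and 3.7 fragments.

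Missing slices were filled from their nearest neighbours, and slices were treated as equal blocks. Levels (10 embryos, and zld and wild type at 14A and 14B on their own, pseudocount 1 FPKM) and positions and middle shares (6 embryos) were tested two-sided with limma 3.58.1 in R 4.3.3, with a threshold of 0.05 and Benjamini-Hochberg adjustment over all genes at 15 FPKM. The scripts were tested on simulated data. The labels do not say whether embryos came from separate crosses, so p-values measure only the spread between embryos. All 40 members are named; the first 8, those on the patterning lists and those called in position or middle share are given in full. Members and lists were chosen with earlier results of these data known. Alternatives were other pseudocounts, filters, scaling, kallisto values, other treatments of slices, the replicate block, and leaving out each embryo. No promoter or protein sequence was used here. A row that names no gene (at most 0.000249% of FPKM) was left out.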

Additional observations from a re-analysis of the deposited data

How the results depend on the processing

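Leaving out each embryo in turn gave 9 to 20 members called in level for bcd RNAi against wild type (20 with all embryos), 8 to 17 for 2.4x bcd (15), 5 to 18 for hb RNAi (14), 11 to 18 for zld (14), 0 to 10 for bcd RNAi against 2.4x bcd (6), 0 to 0 for bcd RNAi against hb RNAi and 0 to 1 for 2.4x bcd against hb RNAi. For zld at 14A and 14B against wild type at 14A and 14B it was 4 to 30 (18). In mean position the range was 1 to 9 for bcd RNAi against 2.4x bcd (3), 0 to 1 for bcd RNAi against hb RNAi (0) and 0 to 4 for 2.4x bcd against hb RNAi (1). In middle share it was 0 to 2 (1), 0 to 1 (0) and 0 to 0 (0). With no filter on low values the level counts were 10, 8 and 1 for bcd RNAi and hb RNAi against wild type and bcd RNAi against 2.4x bcd. With wild type at 14D only, hb RNAi had 22. With kallisto values, bcd RNAi against 2.4x bcd had 3 in level and 0 in middle share, bcd RNAi against hb RNAi 1 in position, and BEAF-32 in 2.4x bcd reversed to 0.09 (adjusted p = 0.791). Leaving missing slices out gave 9 and 2 in position for bcd RNAi against 2.4x bcd and against hb RNAi. The position count of 2.4x bcd against hb RNAi was 0 with a profile pseudocount, a threshold of 5 FPKM or the 3 slices set as missing. The middle share count of bcd RNAi against 2.4x bcd was 0 with slices at their midpoints or a threshold of 5 FPKM. The cause was not tested.

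Replicate numbers did not pair the embryos. The correlations of deviations were -0.12, -0.32 and 0.17 in level and -0.19, -0.21 and 0.11 in position. With the replicate number as a block, 0 members were called in position between 2.4x bcd and hb RNAi and 0 in middle share between bcd RNAi and 2.4x bcd, and the other counts of calls were within 1.5 times those without it.

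The rule picked 28 of the 40 with missing slices left out, 25 at 5 FPKM, 22 at 30 FPKM, 24 with slices at their midpoints, 23 with kallisto values, 27 by the mean share and 23 from 14C and 14D only, the last chosen after the data were seen. The members under every setting were 11: Kr, Corp, CG15479, CG4702, eve, sisA, prd, rpr, bun, CG43659 and tsg.

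The members' median middle share moved by more than the spread between replicates (1.3 points) in these cases. With missing slices left out it was 37.3% and 36.9% in bcd RNAi, 33.1% in hb RNAi embryo 2, and 44.7%, 46.2% and 36% in wild type at 14A, 14B and 14E. With slices at their midpoints it was 37.2% and 31.3% in bcd RNAi, 33.9% in each 2.4x bcd embryo, 39.9% in zld, and 30%, 45.7%, 51.1%, 35.9% and 47.5% in wild type at 14A to 14E. With kallisto values it was 35.4% in bcd RNAi embryo 1, 35.7% and 36.8% in 2.4x bcd, 32.5% in zld and 39.5%, 48.8% and 43% in wild type at 14A, 14C and 14D. With the 3 slices set as missing it was 35.5% in bcd RNAi embryo 1.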
